A study of Mus musculus with 35 samples.

Results

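Lung RNA of mice given anti-Ly6G was compared with that of mice given a control IgG at ZT4, which is 4 hours after lights on. These 14 libraries, 7 per group, were taken from the 35 of the series by the group, time and batch that their table columns name. The other libraries came from 14 mice of the same 2 treatments at ZT16 and from 7 mice given diphtheria toxin (DT).

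Per the labels, all mice of both ZT4 groups were male, wild-type C57BL/6 animals aged 7 to 9 weeks and kept on a normal cycle of 12 h light and 12 h dark. Anti-Ly6G (clone 1A8) or control IgG was injected under the skin at 3 µg per g body weight on 2 consecutive days, and the left lung lobe was taken the next day after perfusion with PBS. Control mice therefore carry the injections and the IgG as well. Each group held 3 mice of a July 2017 batch and 4 of a September 2017 batch, and each library was taken as 1 mouse. The surfactant gene Sftpc, which marks lung alveolar type 2 cells, stood at 14379.9 to 17812.5 in all 14 libraries.

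Ly6G is a surface protein of mouse neutrophils, and antibodies of clone 1A8 are used to deplete these cells from blood and tissues. The lung holds a large pool of neutrophils in its capillaries. S100a8 and S100a9 encode the calprotectin subunits, which are very abundant in neutrophils, and Csf3r encodes the receptor for G-CSF, the growth factor that drives their production. In RNA from whole tissue, fewer cells of a type and less RNA per cell cannot be told apart.

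The values are the authors' normalised expression values per gene, of unknown read depth. Differences are anti-Ly6G minus control on the log2(value + 0.5) scale, ± SE from limma with batch as a covariate, and the scale understates the change of low genes. Between 15466 and 15802 of 22211 genes reached a value of 1 in each ZT4 library, and its 10 highest genes held 7.75% to 9.05% of all signal. The highest correlation between 2 ZT4 libraries was 0.990 and the median was 0.987. Libraries are numbered within group and batch by their order in the table, and these numbers pair nothing.

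A single control library stood apart from the rest, and results are given with and without it. In September control library 2, S100a8 stood at 197 and S100a9 at 279, where the next highest control library, September control library 1, had 42.9 and 61.4. Over the 28 mature neutrophil genes tested, the median difference of this neutrophil-rich library from the mean of the other 6 controls was 2.16 (log2). Red cell and heat shock transcripts were also high in it. Hbb-bs, a beta globin gene, differed from the other controls by 3.03, the alpha globin gene Hba-a2 by 2.96, and the chaperone genes Hspa1b and Hspa1a by 2.45 and 2.29. The globin and Hspa1 genes have near-identical copies, so their reads may be split between them. B cell genes differed in it by a median of -0.80. The part of blood content or tissue handling in the neutrophil differences was not tested. Leaving out a control library for its high S100a8 narrows the difference of S100a8, and of genes that go with it, by construction.

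The 3 neutrophil marker genes were each lower after anti-Ly6G, with medians of 7.88 against 10.9 for S100a8, 7.95 against 15.8 for S100a9 and 7.96 against 13.8 for Csf3r. Their promoters, each a window of 300 bases around the gene start from RefSeq (GRCm38.p6), are shown since these genes mark neutrophils. Capitals mark GAGGAA, the core bound by the myeloid factor PU.1, or TTGCNNAA, a relaxed C/EBP family pattern that does not fix both half-sites in full. Both patterns were searched on both strands (a match on the other strand reads TTCCTC or TTNNGCAA). The S100a8 window is chr3:90668821-90669120 on the plus strand, that of S100a9 chr3:90695672-90695971 on the minus strand and that of Csf3r chr4:126024409-126024708 on the plus strand.
S100a8: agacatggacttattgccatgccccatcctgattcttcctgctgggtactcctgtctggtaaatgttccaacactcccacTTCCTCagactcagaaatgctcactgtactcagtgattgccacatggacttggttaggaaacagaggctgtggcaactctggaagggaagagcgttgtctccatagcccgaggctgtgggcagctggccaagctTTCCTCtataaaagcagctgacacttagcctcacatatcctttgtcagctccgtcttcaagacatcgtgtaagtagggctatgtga
S100a9: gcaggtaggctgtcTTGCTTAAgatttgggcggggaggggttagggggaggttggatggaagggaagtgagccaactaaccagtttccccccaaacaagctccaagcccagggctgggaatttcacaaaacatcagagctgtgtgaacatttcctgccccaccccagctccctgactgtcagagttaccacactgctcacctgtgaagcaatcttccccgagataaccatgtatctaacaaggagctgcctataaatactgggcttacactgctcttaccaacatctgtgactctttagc
Csf3r: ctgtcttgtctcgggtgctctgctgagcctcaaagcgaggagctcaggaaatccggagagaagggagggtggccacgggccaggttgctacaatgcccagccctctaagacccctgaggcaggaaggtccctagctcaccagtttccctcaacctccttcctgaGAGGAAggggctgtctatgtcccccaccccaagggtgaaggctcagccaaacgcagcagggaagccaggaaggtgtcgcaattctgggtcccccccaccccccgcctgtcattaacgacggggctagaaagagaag
S100a8 holds 2 matches to GAGGAA, Csf3r 1, and S100a9 1 to TTGCNNAA. Among the 25 mature neutrophil genes with a promoter in the table, 12 (48.0%) held GAGGAA against 28.3% of all 27025 promoters and 27.1% of the 11813 of genes tested. TTGCNNAA was found in 5 of 25 (20%), against 10.8% and 8.74%. These shares describe the letters in the windows and show no binding.

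Csf3r (ENSMUSG00000028859, GRCm38 chromosome 4, 126024550 to 126044440) ranged from 4.96 to 9.36 in anti-Ly6G mice (median 7.96) and from 11.1 to 92.4 in controls (median 13.8). Every anti-Ly6G mouse was below every control mouse, in both batches. The difference was -1.39 ± 0.329, and -1.04 without the neutrophil-rich library. An exact two-sided permutation of the treatment within batch gave p = 0.00143 with all libraries and without that library, the smallest that the 1400 and 700 permutations of these tests allow. The permutation uses the mean difference within batches, which differs by up to a few hundredths from limma's value once libraries are left out. Adjusted by Benjamini-Hochberg over the 4 genes tested this way, p was 0.00571 with all libraries. These genes were chosen with earlier results of the data known. limma's adjusted p over all genes was 0.34.

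S100a9 (ENSMUSG00000056071, chromosome 3, 90692632 to 90695721) ranged from 5.31 to 14.1 after anti-Ly6G and from 8.80 to 279 in controls. The groups overlapped, since September control libraries 3 and 4, at 8.80 and 12.2, lay within the anti-Ly6G range. The difference was -1.59 ± 0.484 (exact permutation p = 0.0129, adjusted p = 0.0257 over the 4 genes; limma adjusted p = 0.629), and -1.06 without the neutrophil-rich library (exact permutation p = 0.0229). Without September control library 1 as well, it was -0.69 (exact permutation p = 0.06), and without September anti-Ly6G library 4 it was -1.41 (exact permutation p = 0.0529).

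S100a8 (ENSMUSG00000056054, chromosome 3, 90668978 to 90670035) ranged from 4.88 to 12.5 after anti-Ly6G and from 6.23 to 197 in controls. All but 3 control mice lay within the anti-Ly6G range. The difference of -1.18 ± 0.476 did not pass (exact permutation p = 0.1, adjusted p = 0.13; limma adjusted p = 0.663). It was -0.63 without the neutrophil-rich library (exact permutation p = 0.18) and -0.26 without both of the highest controls (exact permutation p = 0.467). With September control library 3 or 4 left out, it was -1.48 (exact permutation p = 0.0271) and -1.43 (exact permutation p = 0.0414).

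Ly6g (ENSMUSG00000022582, chromosome 15, 75155240 to 75159126), which encodes the antibody's target, was too low for the filter on low values. It was at most 0.447 in anti-Ly6G mice (lowest 0.0787, median 0.303) and at most 0.512 in 6 of 7 controls (lowest 0.144, median 0.435), with 6.04 in the neutrophil-rich library. Apart from that library the groups overlapped over most of their ranges. The difference was -0.61 (exact permutation p = 0.13, adjusted p = 0.13) and -0.19 without that library (exact permutation p = 0.26). Without September control library 4 it was -0.78 (exact permutation p = 0.0243).

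**Figure D1:**
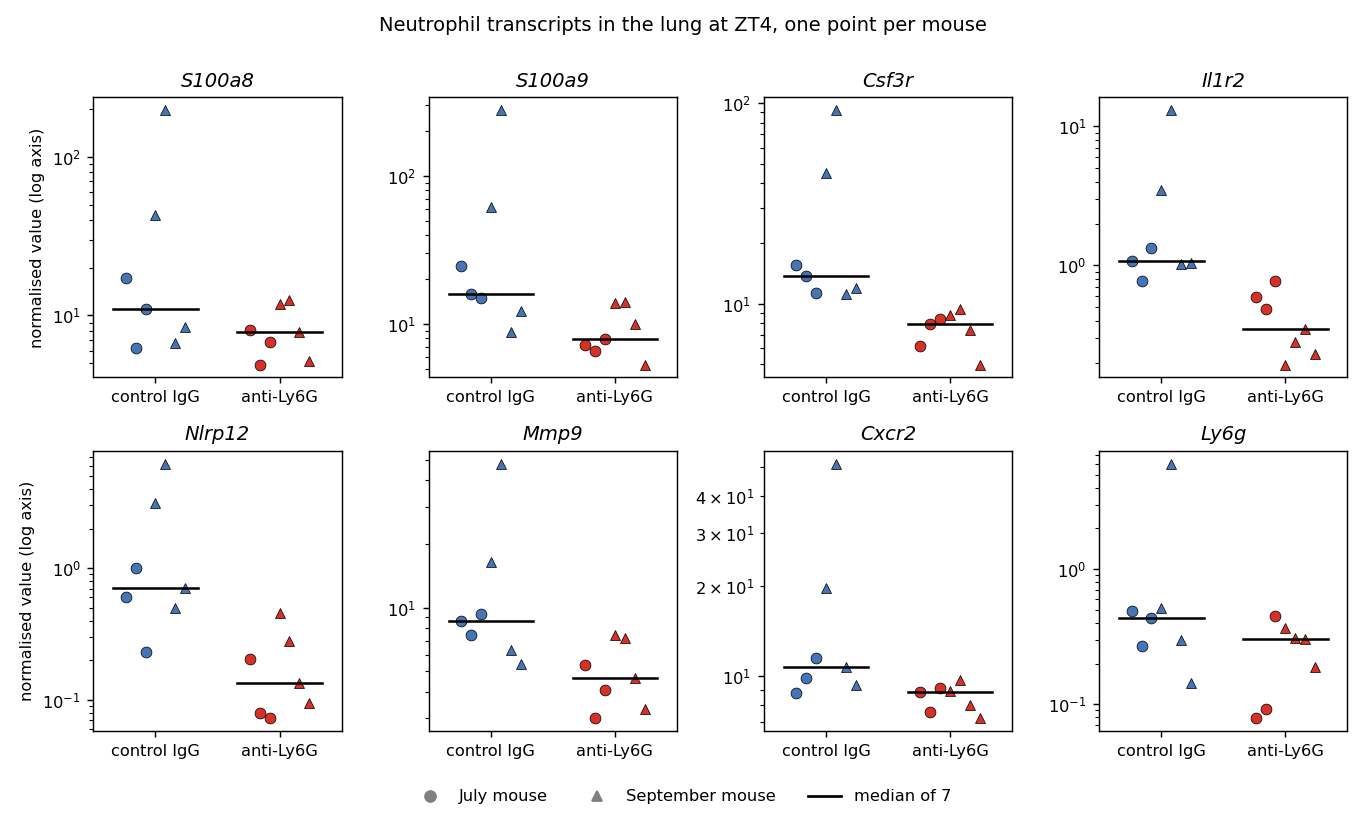
Normalised values (log axis) of 8 neutrophil transcripts in each of the 7 control and 7 anti-Ly6G mice at ZT4, with circles for July, triangles for September and a line at the median of 7. Csf3r is lower in every anti-Ly6G mouse than in any control, whereas S100a8 and Ly6g overlap apart from a few high controls.

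Receptors that neutrophils display followed the same direction. Il1r2, the decoy receptor for interleukin-1 (ENSMUSG00000026073, chromosome 1, 40074079 to 40125231), stood at 0.193 to 0.777 after anti-Ly6G (median 0.348) and 0.766 to 13.1 in controls (median 1.07). A single control mouse, July control library 2 at 0.766, lay just inside the anti-Ly6G range. The difference was -1.43 ± 0.339 (limma adjusted p = 0.34), and -1.01 without the neutrophil-rich library. Cxcr2, the receptor through which neutrophils respond to CXC chemokines, stood at 7.23 to 9.69 (median 8.88) against 8.79 to 51.3 (median 10.7). Its 2 highest controls were both September mice, and the difference of -0.69 ± 0.229 became -0.38 without the highest (limma adjusted p = 0.629 and 0.875). The chemokine receptor gene Ccr1 differed by -0.79, the C-type lectin gene Clec4d by -1.18 and the activating receptor gene Trem1 by -0.76. Without the neutrophil-rich library these were -0.48, -0.73 and -0.44. None of these passed, with limma adjusted p of 0.629 to 0.638.

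Enzymes, cytokines and intracellular sensors of neutrophils were also lower. Nlrp12, a sensor that dampens inflammatory signalling in myeloid cells, stood at 0.0725 to 0.456 after anti-Ly6G (median 0.134) and at 0.230 to 6.23 in controls (median 0.707), a difference of -1.30 ± 0.309 (limma adjusted p = 0.34). July control library 3 at 0.230 was the only control inside the anti-Ly6G range, and 476 exon bases of Nlrp12 are shared with other genes. Mmp9, a gelatinase stored in neutrophil granules, stood at 3.01 to 7.42 (median 4.65) against 5.43 to 47.8 (median 8.63), and differed by -1.10 ± 0.290 (limma adjusted p = 0.428). The groups overlapped in September but not in July, where Mmp9 differed by -0.97. Il1b, the cytokine interleukin-1 beta, differed by -1.04, which lay in September (-1.83) and not in July (0.01). Without the neutrophil-rich library the difference of Il1b was -0.66. Padi4, the enzyme that citrullinates histones in neutrophils, differed by -0.71, and Slfn4, a Schlafen family gene, by -1.19. In the neutrophil-rich library Padi4 stood at 12.2 and Slfn4 at 77.6, and without it the differences were -0.42 and -0.69. The secreted factor gene Retnlg differed by -0.99, with 58.2 in the neutrophil-rich library against at most 6.03 in the other controls, and by -0.41 without that library.

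Across the 28 of 32 listed mature neutrophil genes that passed the filter, 24 were lower and 4 higher, with a median of -0.72. Over all 16786 genes tested the median was 0.00 and 48.0% were lower. Of the 28, 17 were lower and 1 higher at an unadjusted p under 0.05, against 3.35% lower and 3.71% higher of all genes. None passed limma's adjusted threshold of 0.05, which 0% of all genes did, and 1185 genes had an unadjusted p under 0.05 (563 lower and 622 higher, lowest adjusted p = 0.34). Among ZT4 mice, some of these genes, such as Il1r2 and Nlrp12, reached a value of 1 only in controls, so passing the filter was tied to the difference. Genes whose groups did not overlap made up 0.0238% of all genes with anti-Ly6G lower (4 genes), Csf3r among them, and 0.0834% with anti-Ly6G higher (14 genes).

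Without the neutrophil-rich library the median was -0.40, with 19 lower and 9 higher. Of these, 12 were lower and 0 higher at an unadjusted p under 0.05, against 2.55% and 2.88% of all genes, of which 48.2% were lower, 0% passed the adjusted threshold and 912 had an unadjusted p under 0.05 (lowest adjusted p = 0.643). Without September control library 1 as well, the median was -0.22. Genes that were higher with all libraries included G0s2 (0.25), Cd177 (0.25) and Ifitm6 (0.13). G0s2 encodes an inhibitor of fat breakdown and Cd177 a neutrophil surface protein. Mmp8, neutrophil collagenase, differed by -0.46 with all libraries and by 0.09 without the neutrophil-rich one.

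The 2 batches were compared gene by gene. The median of the mature neutrophil list was -0.19 in July and -1.0 in September, and -0.40 in September without the neutrophil-rich library. Lower in both batches were 19 of the 28, where 26.3% of all genes were lower in both. S100a9 differed by -1.27 in July and -1.83 in September, Csf3r by -0.81 and -1.82, and Il1r2 by -0.47 and -2.14. With 3 mice against 3 in July the smallest exact permutation p is 0.1, which Csf3r and S100a9 reached there, while in September Csf3r had an exact permutation p of 0.0286 and S100a9 one of 0.257. The difference between batches was itself tested in limma, and for Csf3r, S100a9 and Il1r2 its unadjusted p was 0.120, 0.571 and 0.0140, with an adjusted p of 1 for each.

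**Figure D2:**
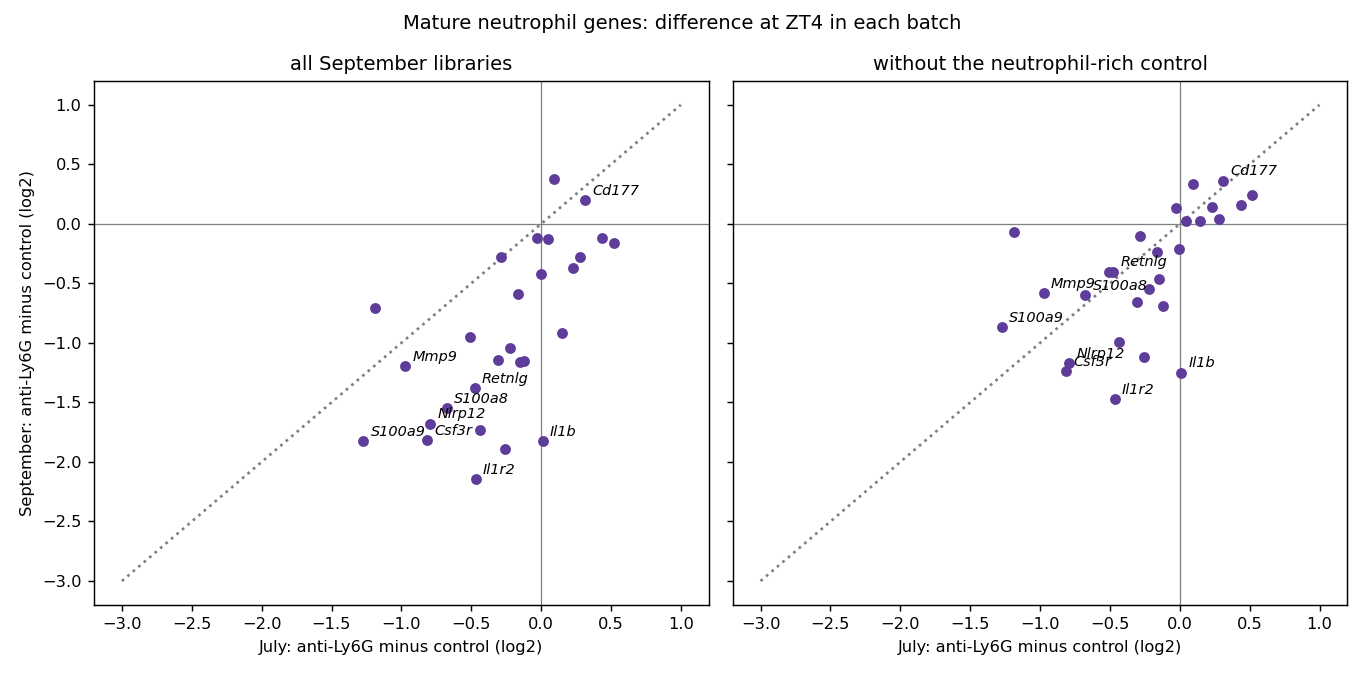
Difference of each of 28 mature neutrophil genes (anti-Ly6G minus control at ZT4, log2) in July on the x axis and September on the y axis, with all September libraries on the left and without the neutrophil-rich control on the right. The dotted line marks equal differences; most points lie in the lower left, 19 genes are below 0 in both batches, and Il1b is near 0 in July only.

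At ZT16 the same treatments were compared in other mice, 7 per group. Csf3r differed there by -0.78, S100a9 by -1.08, S100a8 by -1.14 and Il1r2 by -0.47, and the median over mature neutrophil genes was -0.26. S100a8 in ZT16 controls ranged from 3.05 to 22.0 (median 11.4), so no control library there was as high as the 2 highest of ZT4. The test of ZT4 against ZT16 differences called 0% of all genes (1007 at an unadjusted p under 0.05, lowest adjusted p = 0.812), and gave Csf3r -0.61 (adjusted p = 0.874) and S100a8 -0.04 (adjusted p = 0.995). Mice at ZT16 lived on inverted light in cabinets, so time and housing cannot be told apart.

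Genes of granule proteins, which neutrophil precursors make in the bone marrow, gave little signal. Only 4 of 12 passed the filter, and Mpo and Elane were among the 8 that did not. Lcn2, lipocalin 2, differed by -0.29, Ltf, lactotransferrin, by -0.47, Ngp by 0.12 and Prtn3, proteinase 3, by 0.42 (limma adjusted p of 0.674 to 0.953). Lcn2 is also expressed by airway epithelium, so its level in the lung is not that of neutrophils alone.

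Chemokines and growth factors that recruit or sustain neutrophils were described from a list of 18, of which 10 passed the filter and Cxcl2 and Csf3, the gene of G-CSF, did not. Of the 10, 3 were lower and 7 higher, with a median of 0.08 and 0 at an unadjusted p under 0.05. Cxcl12, which retains neutrophils in the bone marrow, stood at 257 to 344 after anti-Ly6G (median 271) and 217 to 280 in controls (median 248), a difference of 0.19 ± 0.092 (limma adjusted p = 0.706). Its highest value was that of September anti-Ly6G library 2. Cxcl5 differed by 0.43 (-0.18 in July), Cxcl1 by 0.20 (-0.34 in July), Cxcl15 by -0.04 and Csf1 by 0.03. Fc gamma receptor and antibody effector genes, 14 in number, had a median of 0.03. Of these, 9 were higher and 5 lower, where 48.0% of all genes were lower, and 0 had an unadjusted p under 0.05. Among the higher ones C3 differed by 0.22 and C1qc by 0.14. Among the lower ones were the low-affinity receptor gene Fcgr3 at -0.28 and the C5a receptor gene C5ar1 at -0.35 (-0.17 and -0.15 without the neutrophil-rich library). Without September anti-Ly6G library 2 the median of this list was -0.02. C5ar1 stood at 23.9 in the neutrophil-rich library, and its difference was 0.02 in July.

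Lists of other leukocytes were mostly higher after anti-Ly6G, and no gene of them passed limma's adjusted threshold. B cell genes had a median of 0.38, with 19 of 21 higher. At an unadjusted p under 0.05, 5 were higher and 1 lower, against 3.71% and 3.35% of all genes, and with any 1 library left out 1 to 14 were higher. Higher in both batches were 19 of 21, where 28.9% of all genes were. The mean level of the list ranged from 3.03 to 4.06 (log2) in anti-Ly6G mice (median 3.64) and from 2.57 to 3.69 in controls (median 3.49). The groups overlapped, and the lowest library was the neutrophil-rich control. Without it the median difference was 0.30 with 19 of 21 higher, 2 of them at an unadjusted p under 0.05.

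Stap1, an adaptor protein of B cell signalling, was higher in every anti-Ly6G mouse than in any control, at 3.82 to 6.64 (median 5.32) against 2.56 to 3.78 (median 3.12). Its difference was 0.60 ± 0.140 with all libraries and 0.56 without the neutrophil-rich one (limma adjusted p = 0.34 and 0.643). At ZT16 it was 0.05. Cd79b, a subunit of the B cell receptor, differed by 0.54 and the B cell kinase gene Blk by 0.50. Both were lowest in the neutrophil-rich control, and without it the differences were 0.37 and 0.31. Vpreb3, expressed in developing B cells, was lower by the same measure (-0.21). Plasma cell genes had a median of 0.38 over 7 genes (0.21 without September anti-Ly6G library 2), and Igha, the constant region of IgA, stood at 23.6 to 104 (median 27.9) against 15.3 to 36.5 (median 20.6). Its difference was 1.52 in September and -0.01 in July, and the 2 highest values, 103 and 104, were those of September mice.

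Natural killer cell genes had a median of 0.18, with 20 of 23 higher and 4 higher at an unadjusted p under 0.05, against 3.71% of all genes. It was 0.19 without the neutrophil-rich library, and 16 of 23 were higher in both batches, against 28.9% of all genes. With any 1 library left out, 2 to 6 were higher at an unadjusted p under 0.05. Klra4, an activating receptor of the Ly49 family, stood at 1.64 to 5.11 (median 2.39) against 0.800 to 1.89 (median 1.30). Control libraries September 1 and July 2, at 1.89 and 1.85, were the only controls above the lowest anti-Ly6G mouse. The difference was 0.74 ± 0.192 (limma adjusted p = 0.389; 0.12 at ZT16), and Ly49 genes are close paralogs whose reads may be split. Klrd1, which encodes CD94, differed by 0.46 and Klrb1c, which encodes NK1.1, by 0.36. T cell genes had a median of 0.14 with 19 of 24 higher, where 48.0% of all genes were lower. At an unadjusted p under 0.05, 2 were higher, against 3.71% of all genes. Higher in both batches were 8 of 24, against 28.9% of all genes. In July alone the median was -0.03 with 14 of 24 lower. Without the neutrophil-rich library the median was 0.08 with 16 of 24 higher. Cd8a, the co-receptor of cytotoxic T cells, differed by 0.51 and the costimulatory receptor gene Icos by 0.35.

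Among mononuclear phagocytes the lists went in different directions. Nonclassical monocyte genes had a median of 0.11 over 11 genes (0.21 without the neutrophil-rich library), and classical monocyte genes one of 0.06 over 11 (0.17). With another library left out the latter ranged from -0.02, without September anti-Ly6G library 2, to 0.17, without September control library 1. Of the 11 classical monocyte genes, 6 were higher and 5 lower with all libraries. At an unadjusted p under 0.05, 1 was higher and 1 lower, against 3.71% and 3.35% of all genes. The higher one was the chemokine receptor gene Ccr2, which takes classical monocytes out of the marrow. Ccr2 stood at 40.3 to 64.7 (median 46.2) against 32.3 to 47.4 (median 35.5), a difference of 0.38 ± 0.153 (limma adjusted p = 0.663). The lower one, Fn1, differed by -0.25 ± 0.107 (limma adjusted p = 0.669). Csf1r, the receptor that macrophages need to survive, differed by 0.12 ± 0.043 (limma adjusted p = 0.641), and 873 of its exon bases are shared with another gene. Alveolar macrophage genes were lower in 13 of 15, against 48.0% of all genes, with a median of -0.20. At an unadjusted p under 0.05, 3 were lower, against 3.35% of all genes. The list's median was 0.06 in July and -0.31 in September. It was -0.12 without the neutrophil-rich library, with 0 at an unadjusted p under 0.05, and -0.11 without September control library 3. Pparg, which alveolar macrophages need to mature, differed by -0.26 and the lipid droplet gene Cidec by -0.46. Interstitial macrophage genes were higher in 10 of 12 and lower in 2, where 48.0% of all genes were lower, with a median of 0.09. At an unadjusted p under 0.05, 1 was higher and 1 lower, against 3.71% and 3.35% of all genes. Lyve1, the gene of this list lower at that p, is a hyaluronan receptor of lymphatic endothelium and some interstitial macrophages. It stood at 124 to 220 (median 189) against 180 to 311 (median 261) and differed by -0.46 ± 0.151 (limma adjusted p = 0.629).

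**Figure D3:**
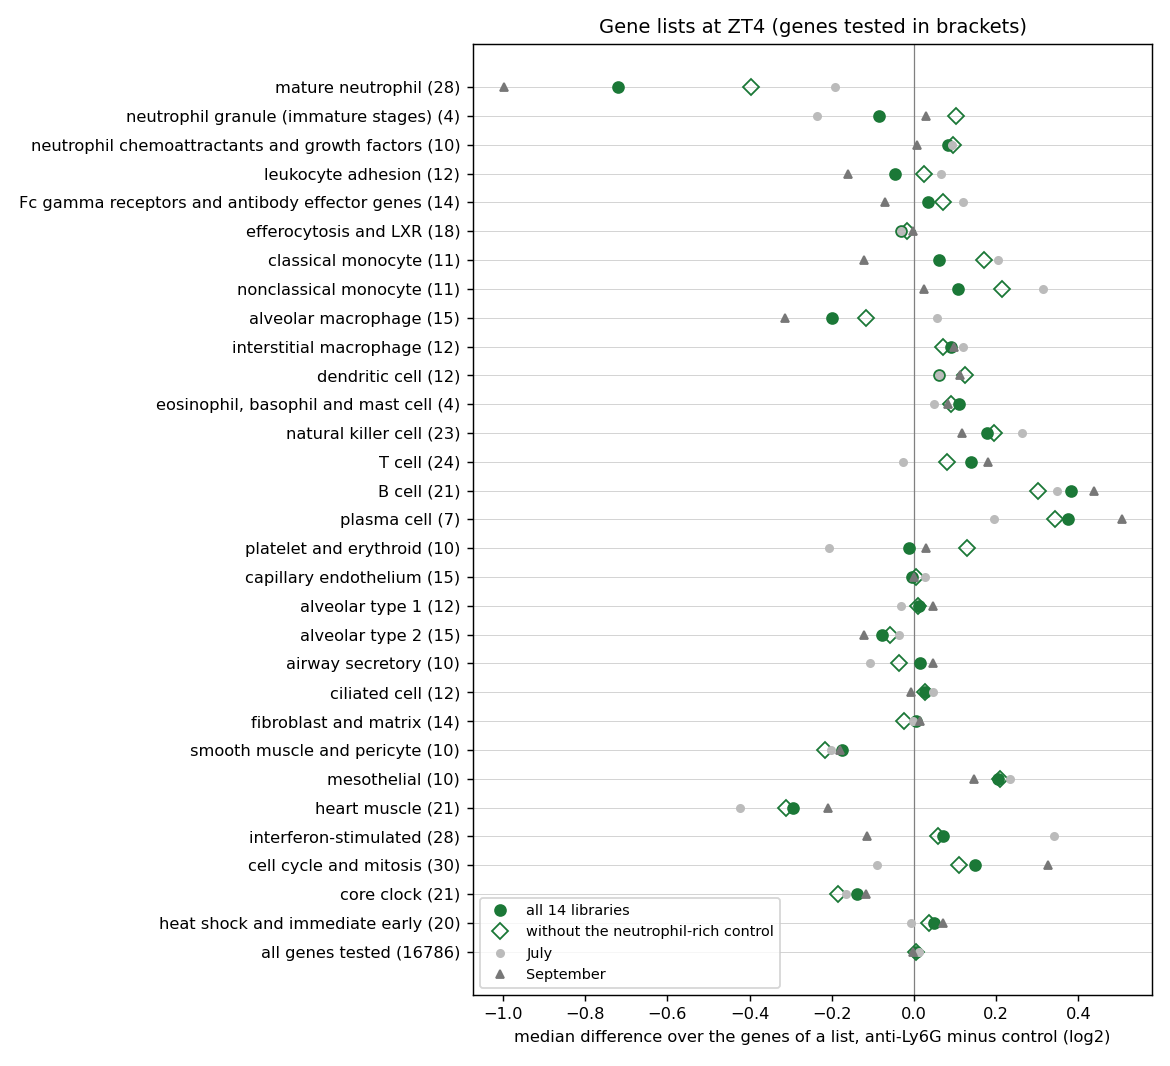
Median difference over the tested genes of each list (anti-Ly6G minus control at ZT4, log2) with all 14 libraries (filled circles), without the neutrophil-rich control (diamonds), and in July (small circles) and September (triangles) alone. With all libraries the mature neutrophil list lies farthest to the left, at -0.72, the B and plasma cell lists lie farthest to the right, both at 0.38, and all genes tested lie at 0.00.

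Heart muscle genes were lower in 21 of 21 tested, with a median of -0.29 and 11 lower at an unadjusted p under 0.05. Of all genes, 48.0% were lower and 3.35% lower at that p. Neither the count of 21 nor that of 11 changed without the neutrophil-rich library, where the median was -0.31. With any 1 of the 14 libraries left out, 21 were lower, 8 to 15 of them at an unadjusted p under 0.05. Lower in both batches were 19 of 21, against 26.3% of all genes, with medians of -0.42 in July and -0.21 in September, while at ZT16 the median was -0.04. The list's mean level ranged from 4.54 to 5.27 (log2) after anti-Ly6G (median 4.90) and from 4.86 to 5.56 in controls (median 5.27), so the groups overlapped.

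Hspb7, a small heat shock protein of heart muscle, stood at 17.2 to 31.4 (median 25.3) against 28.4 to 34.3 (median 31.1) and differed by -0.37 ± 0.099 (limma adjusted p = 0.443). Below every control were 5 of 7 anti-Ly6G mice. Actn2, the sarcomeric alpha-actinin, differed by -0.45, the calcium store protein gene Casq2 by -0.47 and the muscle creatine kinase gene Ckm by -0.41. Which cells of the lobes these transcripts came from was not tested. Smooth muscle and pericyte genes were lower in 9 of 10, against 48.0% of all genes, with a median of -0.17. At an unadjusted p under 0.05, 4 were lower, against 3.35% of all genes. Without September anti-Ly6G library 2 the median was -0.11 with 1 lower at that p, and without September control library 1 it was -0.15 with 0. At ZT16 the list's median was 0.09. Among its genes Des, desmin, differed by -0.21, the contractile genes Tagln and Cnn1 by -0.23 and -0.31, and the pericyte proteoglycan gene Cspg4 by -0.19. Mesothelial genes had a median of 0.20 with 9 of 10 higher (0.13 with 8 higher without September anti-Ly6G library 2 or without September control library 4), and Rspo1, an enhancer of Wnt signalling, differed by 0.22. Alveolar type 2 genes were lower in 14 of 15, against 48.0% of all genes, with a median of -0.08. At an unadjusted p under 0.05, 2 were lower, against 3.35% of all genes, or 0 to 5 with any 1 library left out.

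Genes of cell cycle and mitosis were higher in 28 of 30, with a median of 0.15, where 48.0% of all genes were lower. At an unadjusted p under 0.05, 5 were higher, against 3.71% of all genes. The list's mean level was 2.34 to 3.23 (log2) in anti-Ly6G mice (median 2.51) and 2.20 to 2.54 in controls (median 2.44). September anti-Ly6G library 2 alone lay far above the rest, and without it 18 of 30 were higher, with a median of 0.05 and 1 at an unadjusted p under 0.05. July mice alone gave a median of -0.09 and September mice one of 0.33. Kif4, a kinesin of the mitotic chromosomes, stood at 2.99 to 5.30 (median 4.35) against 1.92 to 3.10 (median 2.48), with 1 anti-Ly6G mouse below the highest control. It differed by 0.66 ± 0.149 (limma adjusted p = 0.34; 0.06 at ZT16), and 832 of its exon bases are shared with another gene. The anaphase activator gene Cdc20 differed by 0.37, the proliferation marker gene Mki67 by 0.32 and the replicative helicase gene Mcm5 by 0.23.

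Interferon-stimulated genes had a median of 0.07 over 28 genes, with 0.34 in July and -0.11 in September. July anti-Ly6G library 3 alone stood at a mean level of 5.70 (log2), where the other 6 anti-Ly6G mice lay between 4.07 and 4.52 and controls between 4.19 and 4.47. Without it 24 of 28 were lower, with a median of -0.12 and 4 lower at an unadjusted p under 0.05. Of all genes, 48.0% were lower with all libraries, and 3.35% lower at that p. The direction of the interferon-stimulated list therefore rests on July anti-Ly6G library 3. Cxcl10, an interferon-induced chemokine, differed by 0.52 and stood at 6.20 in that library against at most 2.74 in the other anti-Ly6G mice.

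Core clock genes were lower in 18 of 21, against 48.0% of all genes, with a median of -0.14. At an unadjusted p under 0.05, 3 were lower, against 3.35% of all genes. Lower in both batches were 16 of 21, against 26.3% of all genes. The median was -0.08 without September anti-Ly6G library 2 and -0.22 without September control library 1. Csnk1e, the kinase that phosphorylates PER proteins, stood at 94.4 to 110 (median 101) against 101 to 114 (median 114), a difference of -0.13 ± 0.046 (limma adjusted p = 0.641). The repressor genes Cry1 and Per2 differed by -0.23 and -0.54, and the output factor gene Tef by -0.26. Per2 ranged from 25.1 to 77.7 after anti-Ly6G and from 46.7 to 107 in controls, so its spread between mice of a group was as wide as the difference.

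**Figure D4:**
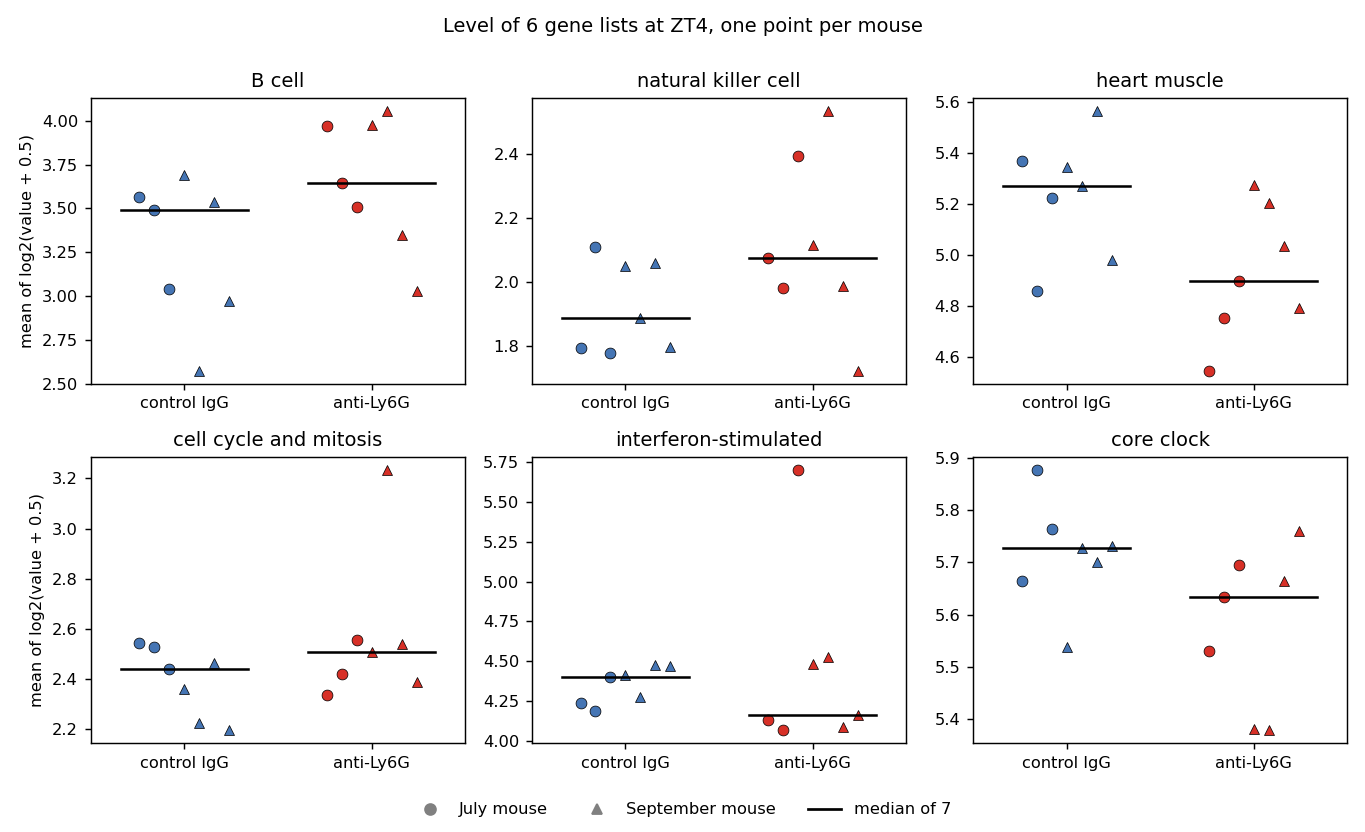
Mean of log2(value + 0.5) over the genes of 6 lists in each mouse at ZT4, with circles for July, triangles for September and a line at the median of 7. September anti-Ly6G library 2 (3.23) is the high point of the cell cycle list, July anti-Ly6G library 3 (5.70) that of the interferon-stimulated list, and the 2 groups overlap in all 6 panels.

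Genes outside the lists were named by smallest p in each direction among those at or above the median level. Of the lower ones, Fblim1, which encodes a filamin-binding adaptor of cell junctions, differed by -0.30 ± 0.072 (limma adjusted p = 0.34), at 50.6 to 82.1 (median 63.8) against 72.6 to 87.8 (median 79.3). The fibroblast growth factor receptor gene Fgfr1 differed by -0.20, Abhd5, a co-activator of fat breakdown, by -0.24, the orphan receptor gene Gpr153 by -0.33 and the BMP receptor gene Acvr1 by -0.19. Aldh1a1 and Aldh1a7, neighbouring paralogs of which the former makes retinoic acid, differed by -0.22 and -0.21. The higher ones held Wsb1, a ubiquitin ligase subunit, at 117 to 148 (median 137) against 100 to 124 (median 109), a difference of 0.26 ± 0.064 (limma adjusted p = 0.356). The Wnt receptor gene Fzd6 differed by 0.25, the kinase gene Map3k1 by 0.24 and Sec11c, a subunit of signal peptidase, by 0.18. Fzd6 and Sec11c were higher in each anti-Ly6G mouse than in any control. None of these passed, and their differences without the neutrophil-rich library kept their sign. Exons of Fzd6, Fgfr1 and Abhd5 share 152, 164 and 950 bases with other genes, and no strand setting is stated, so part of their value may come from the other gene. Of the genes named earlier, this also holds for Tagln (1349 bases), Csf1r (873), Hspa1a (564), Ckm (451) and Klrb1c (413). Shorter overlaps, of 25 to 292 bases, lie in Fn1, Csnk1e, Des, Tef, Prtn3, Cxcl10, Cdc20 and Il1b.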

How the data were processed

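The signal values are normalised expression values per gene, made and deposited by the authors as 1 table of all batches. Amplification with a single-cell RNA kit and Illumina sequencing are given per the labels' protocols. Per the submitters' processing notes, the tools were kallisto 0.43.1, RSEM 1.2.20, cutadapt and CASAVA 1.8.2 with build GRCm38, whose roles are not stated. How the values were normalised is not stated either. The SD of the September minus July term over its standard error was 0.516 across genes, so batches may have been aligned before deposit, which can make standard errors too small. Read depth is unknown and no counting interval can be given.

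A gene needed a value of 1 in 3 or more libraries, which 16786 genes reached and 5425 did not. The model was limma (version 3.58.1, R 4.3.3) with its trend option, fitted on log2(value + 0.5) of all 35 libraries, with group means and a September term (28 residual degrees of freedom), two-sided with Benjamini-Hochberg adjustment over all genes kept. Single genes were tested by exact permutation within batch. Both were tested on simulated data. The genes, lists and tests were chosen with earlier results of these data known. Named are the neutrophil and chemoattractant genes, up to 4 genes of smallest p per list, 10 genes highest in the neutrophil-rich library, and the 12 of smallest p in each direction at or above the median level, though not every such gene is reported here. Promoters came from RefSeq (GRCm38.p6) and exon overlaps from the GRCm38 annotation. Alternatives were other pseudocounts, filters, scalings and weights, each batch alone, and libraries left out, of which leaving out the 2 highest controls was chosen after seeing the data.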

Additional observations from a re-analysis of the deposited data

Results flagged for a closer look

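In groups of 7 libraries, a value was singled out where its gap to the nearest other library exceeded 0.568 of the group's range. Gap and range were taken on the log2 scale used for the differences, while gene values below are given untransformed. This rule marked 18 of 238 combinations of a gene or list with a group, where chance alone marks about 1 in 20. Of these, 5 were in the neutrophil-rich control library, which was high in Trem1 (12.2), Padi4 (12.2), Retnlg (58.2), C5ar1 (23.9) and Ly6g (6.04). September anti-Ly6G library 2 also held 5, with high Cxcl12 (344), high Nkain4 (43.2, a gene of mesothelial cells), low Lyve1 (124), a low alveolar type 1 list (mean level 8.89, log2) and a high cell cycle list (3.23, log2).

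July anti-Ly6G library 3 was high in Cxcl10 (6.20) and in the interferon-stimulated list (5.70, log2). September control library 3 was low in Csnk1e (101) and high in Cidec (42.2). The other 4 were low values: Padi4 in September anti-Ly6G library 4 (0.862), Cdc20 in September control library 1 (2.67), Map3k1 in July control library 3 (43.5) and the list of genes for clearance of dead cells in July control library 1 (6.00, log2).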

How the results depend on the processing

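No gene was called at ZT4 under any pseudocount, filter, scaling, weighting, batch or omission tried, except that 1 gene, Dio3 (-0.70, adjusted p = 0.0335), passed when the neutrophil-rich library was left out and no filter on low values was used. The pooled direction of S100a8, S100a9, Csf3r and Ly6g held throughout. With 1 of the 13 libraries other than the neutrophil-rich control left out, S100a8 ranged from -1.48 to -1.01, S100a9 from -1.93 to -1.41 and Ly6g from -0.78 to -0.56, and without that control they were -0.63, -1.06 and -0.19. S100a9 no longer passed in July (-1.27) or September (-1.83) alone or without the 2 highest controls (-0.69), nor Csf3r in July (-0.81), where 3 against 3 mice cannot reach 0.05. Signs turned in July for Il1b (0.011), Mmp8 (0.15), Ngp (-0.29), Cxcl5 (-0.18), Cxcl1 (-0.34), Igha (-0.010), Cidec (0.024) and C5ar1 (0.018), and in September for Csf1 (-0.050). Without the neutrophil-rich library they turned for Mmp8 (0.091), Hbb-bs (0.16) and Hba-a2 (0.22), and without the 2 highest controls for Mmp8 (0.42), Hbb-bs (0.39), Hba-a2 (0.45) and Cxcl15 (0.0019). With 1 of the other 13 left out, Ngp ranged from -0.030 to 0.24, Csf1 from -0.044 to 0.073, Hbb-bs from -0.68 to 0.018 and Hba-a2 from -0.57 to 0.14. The cause of these turns was not tested. No paired analysis was possible because the table's columns carry no number that ties a library to a numbered sample of the labels. With 7 mice per group and unknown depth, a difference that did not pass is not shown to be absent.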
